A study of Arabidopsis thaliana with 12 samples.

Results

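This report describes the transcripts of nrpd1 seedlings set against those of wild-type (WT) seedlings of Arabidopsis thaliana. The 6 libraries carrying these 2 genotypes were chosen by their labels from the 12 mRNA libraries of the series, and every annotated gene and transposable element (TE) was examined. The nrpd1 plants carried the allele nrpd1-3 and are known from this 1 allele only, so that the loss of the gene and any other difference of that line cannot be told apart. The nrpe1 plants (allele nrpe1-11) and the pkl plants (allele pkl-1), with 3 libraries each, entered the filter on low values and the estimate of the spread of every test. They are described only where nrpd1 is set against them or where a difference taken from no nrpd1 or WT library was needed. The WT plants were Columbia. All plants were grown on 1/2 MS plates at 22 °C. The sample records give 12 h of light and 12 h of darkness, whereas the general methods of the study give a longer day. Whole seedlings were harvested at 2 weeks, and polyadenylated RNA was taken from total RNA. Each genotype had 3 biological replicates by the study's own account.

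NRPD1 encodes the largest subunit of RNA polymerase IV, a plant enzyme related to RNA polymerase II. Polymerase IV makes the precursors of short interfering RNAs, which are copied into double strands by RDR2, diced by DCL3 and loaded onto ARGONAUTE4. At loci transcribed by polymerase V, whose largest subunit is NRPE1, these small RNAs guide DNA methylation by DRM2, and the pathway is called RNA-directed DNA methylation (RdDM). It is best known for the silencing of TEs and of genes that lie close to them. PKL is a chromatin remodeler of the CHD family.

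To place 3 TEs on the genome, amplicons that the study designed within them were located in TAIR10.1, with the primers in capitals. These amplicons do not show where the reads of a TE fell. They are shown because these TEs were either singled out by the study or were the most abundant TE that rose in nrpd1 (AT2TE78320, chosen after its values were seen).
AT1TE42205, chr1:12942681-12942731: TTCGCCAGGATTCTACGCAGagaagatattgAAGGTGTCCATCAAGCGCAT
AT2TE82000, chr2:18106925-18106992: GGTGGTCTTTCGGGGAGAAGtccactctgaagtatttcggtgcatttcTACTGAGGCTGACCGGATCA
AT2TE78320, chr2:17362693-17362746: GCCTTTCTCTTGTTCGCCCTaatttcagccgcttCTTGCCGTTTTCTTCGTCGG
All 3 are written on the plus strand. The AT1TE42205 amplicon lies between genes, 1034 bp from AT1G35270 and 1406 bp from AT1G35280, and that of AT2TE82000 lies 882 bp from AT2G43670 and 1127 bp from AT2G43680. The AT2TE78320 amplicon lies inside 2 overlapping annotated genes on the plus strand, AT2G41640 and AT2G41650.

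Values are RPKM, the reads of a feature per kilobase of its length scaled to the reads assigned in its library. The 3 nrpd1 libraries held 18536446, 21134550 and 20806321 reads, and the 3 WT libraries held 18003317, 15242073 and 19416098. The smallest library of the series was nrpe1 replicate 2, with 7204299 reads. Replicate 1 was the lowest of the nrpd1 libraries for 11442 of the 22704 genes tested. NRPD1 transcript was still read in all nrpd1 libraries, at 1.17, 0.764 and 1.15 RPKM, against 1.49, 1.23 and 1.55 RPKM in WT, and its level did not differ in the test (log2 fold change -0.45, SE 0.21, adjusted p = 1). The position of the lesion is not given in the sources used here, so this level does not check the labels. NRPE1 had 2.63, 1.62 and 2.59 RPKM in nrpd1 and 1.77, 1.42 and 2.30 RPKM in WT (log2 fold change 0.30, adjusted p = 1).

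Of 33602 genes and 31189 TEs annotated, 22704 genes and 965 TEs had enough signal to be tested. Without polymerase IV, 48 TEs rose (4.97% of the TEs tested) and 2 fell (0.207%), whereas 42 genes rose (0.185% of the genes tested) and 138 fell (0.608%). A feature with no read in WT was tested only if mutant libraries held signal, so these shares depend on the filter on low values. A feature was called when its adjusted p was under 0.05 and its log2 fold change was at least 1 in size. In all 230 called features the nrpd1 libraries did not overlap the WT libraries. Such a call nearly requires this, so it is no separate support, and the share among all features tested is not given here. A further measure of size is the median log2 fold change, which was 0.04 over all genes tested and 0.14 over all TEs tested. At an unadjusted p under 0.05 there were 966 genes and 124 TEs. All 12 libraries shared 1 model. Fitted on the 6 nrpd1 and WT libraries alone, 35 of the 48 TEs that rose, 28 of the 42 genes that rose and 38 of the 138 genes that fell were still called, and neither TE that fell was.

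**Figure D1:**
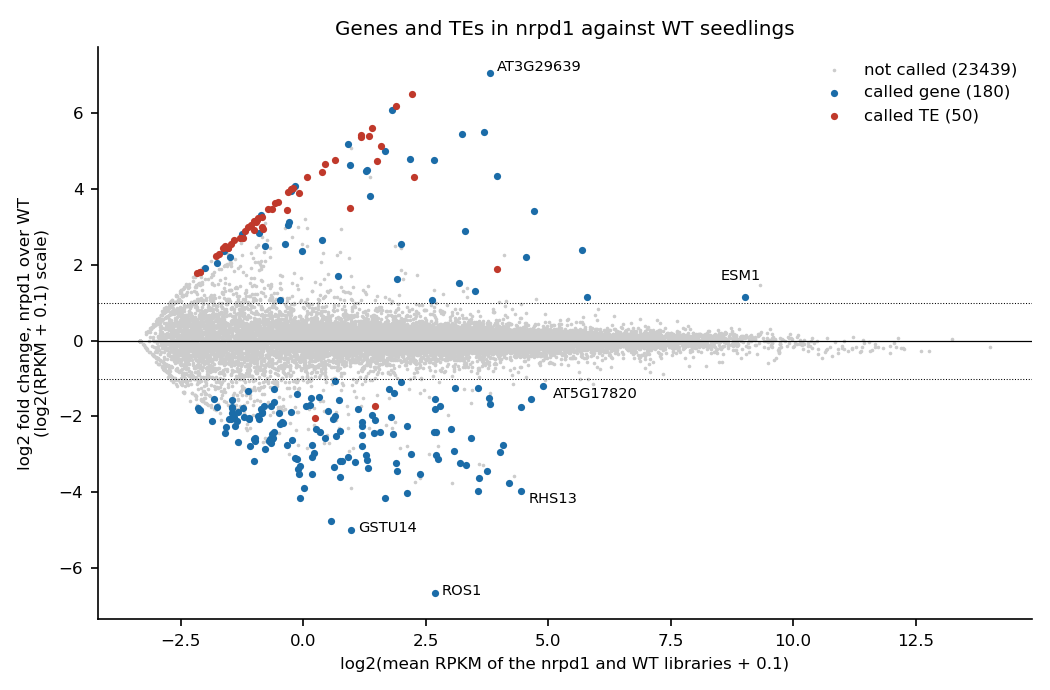
Each point is 1 of the 23669 features tested, with the mean level of the nrpd1 and WT libraries on the x axis (log2 RPKM) and the log2 fold change of nrpd1 over WT on the y axis. Called TEs (red, 50) lie almost only above the line, whereas most of the 180 called genes (blue) lie below it, with ROS1 and GSTU14 lowest.

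The TEs that rose were mostly silent in WT. Of the 48 TEs, 35 had no read in any WT library and 8 more had 1 to 3 reads over the 3 WT libraries. Even in nrpd1 their levels were low: the median of the mean RPKM was 0.965, and 24 of the 48 had a mean under 1 RPKM. The median log2 fold change was 3.25, or 2.91 with the TEs at 0 in WT set to their lower bound, which takes 3 reads in each WT library as the limit of detection. All TEs together took 0.0426%, 0.0537% and 0.0539% of the reads in nrpd1, against 0.0284%, 0.0368% and 0.0405% in WT. The shares of the 2 groups did not overlap, but an exact two-sided permutation test of 3 against 3 libraries cannot give less than the p = 0.1 found here. The 48 TEs, picked by this contrast, held 1812, 2890 and 2642 reads in nrpd1, which is 23.0%, 25.5% and 23.6% of the TE reads, and 30, 24 and 43 reads in WT (0.588%, 0.428% and 0.546%).

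On the log2(RPKM + 0.1) scale AT4TE40115 rose most (log2 fold change 6.51). It had 7.18, 8.68 and 11.7 RPKM in nrpd1 (29, 40 and 53 reads) and no read in the 3 WT libraries, which makes it at least 11.6-fold higher in nrpd1 (adjusted p = 6.96e-06). AT3TE72000 had 5.93, 8.15 and 7.75 RPKM in nrpd1 and 0 in WT, at least 11.5-fold higher (adjusted p = 0.000217). AT4TE12760, AT2TE69490, AT3TE76405 and AT5TE26810 were likewise at 0 in every WT library. Their means in nrpd1 were 5.09, 4.32, 4.30 and 2.94 RPKM, and the lower bounds on the increase were 6.49-fold, 31.5-fold, 30.3-fold and 7.28-fold.

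The other 2 of the 8 TEs with the largest change on that scale had reads in WT as well. AT4TE04415 had 4.75, 5.87 and 6.62 RPKM in nrpd1, against 0.0528, 0.0623 and 0.0815 RPKM in WT, an 87.7-fold difference (log2 fold change 5.13, SE 0.37, adjusted p = 4.57e-05). AT1TE58825 had 78, 153 and 144 reads in nrpd1, against 1, 0 and 0 in WT, a ratio of 326 with a 95% counting interval of 58.2 to 12930. Every nrpd1 library was thus far above every WT library for both.

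Of the loci singled out by the study, AT1TE42205 had 2.13, 2.96 and 5.06 RPKM in nrpd1 and 0, 0.216 and 0.678 RPKM in WT, that is 12, 19 and 32 reads against 0, 1 and 4 (log2 fold change 3.50, SE 0.65, adjusted p = 0.0281). This call rests on few reads, and the adjusted p lay between 0.0502 and 0.133 when nrpd1 replicate 1, 2 or 3, WT replicate 1 or 2, or nrpe1 replicate 2 was left out, and was 0.281 with the nrpd1 and WT libraries alone. AT2TE82000 had 1.16, 1.66 and 1.68 RPKM in nrpd1 and 0.599, 0.177 and 0 RPKM in WT, and did not pass the test (log2 fold change 2.56, SE 0.60, adjusted p = 0.107). With the replicate number as a block its adjusted p was 0.0342, and without WT replicate 1 it was 0.0155. The third locus is the gene AT1G60110, which encodes a lectin of the mannose-binding family. It had 6.39, 4.92 and 5.62 RPKM in nrpd1 and 1.98, 1.68 and 1.58 RPKM in WT, a 3.24-fold rise (adjusted p = 0.009), with an adjusted p of 0.0529 without WT replicate 3.

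AT2TE78320 was the most abundant of the 48 TEs. It had 19.1, 29.2 and 24.8 RPKM in nrpd1, 4.70, 7.48 and 8.52 RPKM in nrpe1, 19.1, 23.1 and 28.9 RPKM in pkl, and 6.99, 4.71 and 7.71 RPKM in WT. It was thus high in nrpd1 and pkl and low in nrpe1 and WT, and it was higher in nrpd1 than in WT (log2 fold change 1.90, SE 0.27, adjusted p = 0.00501) and than in nrpe1 (log2 fold change 1.82, adjusted p = 0.0102). Its amplicon lies inside AT2G41640, a glycosyltransferase gene of family 61, which had 9.76, 16.6 and 11.4 RPKM in nrpd1 and 4.01, 12.3 and 8.62 RPKM in WT (log2 fold change 0.70, adjusted p = 1). AT2G41650 had 25.3, 40.5 and 40.4 RPKM in nrpd1 and 36.3, 57.2 and 47.0 RPKM in WT (log2 fold change -0.41, adjusted p = 1). How reads shared by these features were assigned is not stated, and their part in the result was not tested.

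The 48 TEs were spread over the genome, with 7, 8, 15, 11 and 7 on chromosomes 1 to 5, where 211, 161, 195, 162 and 236 TEs had been tested. Both TEs that fell are on chromosome 2. AT2TE26610 had 0.522, 0.229 and 0.372 RPKM in nrpd1, against 1.42, 1.84 and 2.12 RPKM in WT (log2 fold change -2.03, SE 0.35, adjusted p = 0.0182). AT2TE22815 had 1.48, 1.08 and 0.985 RPKM in nrpd1, against 5.31, 3.59 and 3.52 RPKM in WT (log2 fold change -1.72, SE 0.32, adjusted p = 0.0293). These 2 calls were fragile. The adjusted p of AT2TE26610 lay between 0.0717 and 0.103 without nrpd1 replicate 2 or 3 or WT replicate 2 or 3, and that of AT2TE22815 between 0.084 and 0.141 without nrpd1 replicate 2 or 3 or any 1 WT replicate. They were 0.0804 and 0.0698 with the nrpd1 and WT libraries alone. With the replicate block 4 TEs were lower.

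The genes that rose had a median of the mean levels of 4.58 RPKM in nrpd1, against 0.183 RPKM in WT, and their means in WT reached 324.7 RPKM. Of the 42 genes, 9 had no read in WT and 6 had 1 to 3. The median log2 fold change was 2.87 and was the same with the genes at 0 set to their bound. By annotation, 32 are protein coding, 8 are pseudogenes (2 of them transcribed pseudogenes) and 2 are noncoding RNAs.

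The largest rise on the log2 scale was that of AT3G29639 (chr3:11478633-11480033, an uncharacterized protein), with 32.2, 26.9 and 23.7 RPKM in nrpd1 and 0, 0.350 and 0.0916 RPKM in WT, that is 336, 319 and 277 reads against 0, 3 and 1 (187-fold, adjusted p = 1.75e-05). AT4G04293, an annotated pseudogene, had 23.5, 23.7 and 28.1 RPKM in nrpd1 and 0.629, 0.495 and 0.291 RPKM in WT (53.2-fold, adjusted p = 4.89e-06). AT5G24240, which encodes a phosphatidylinositol 4-kinase gamma-like protein, had 11.5, 12.2 and 13.0 RPKM in nrpd1 and 0.420, 0.358 and 0.281 RPKM in WT (34.7-fold, adjusted p = 8.9e-05). In each of the 3 every nrpd1 library lay far above every WT library. AT3G29639 has 1 near-identical copy, at 90% identity or more over at least 50% of its length, so its own level is uncertain. The same holds, among genes described below, for AT3G28899, AT1G33850, AT1G36680, AT2G01422, AT5G41830 and AT4G00130 with 1 such copy each. It also holds for AT2G07770, with 2 such matches, which were not merged by place and may lie in 1 copy.

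Further genes of this kind were AT2G10975, with 31, 28 and 27 reads in nrpd1 and 0 in WT (at least 8.29-fold higher), and AT3G28899, with 38, 31 and 28 reads in nrpd1 and 0, 2 and 1 in WT (a ratio of 28.1, 95% counting interval 9.35 to 138.9, and adjusted p = 0.0908 with the nrpd1 and WT libraries alone). SDC is an F-box gene known to be silenced by DNA methylation of repeats in its promoter. It had 1.65, 1.55 and 0.856 RPKM in nrpd1 and 0.0791, 0.0935 and 0.0367 RPKM in WT (19.4-fold, log2 fold change 3.06, SE 0.29, adjusted p = 0.000295). Of a list of 13 genes known to respond to methylation, 9 had enough signal to be tested. SDC was the single member to rise, against 0.185% of all genes. The list was chosen with earlier results of these data known.

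Genes that rose were found side by side at 4 places. AT1G33840 and AT1G33850 (chr1:12283725-12288210), which encode a LURP-one-like protein and a ribosomal protein S19 family protein, lie 2541 bp apart on the minus strand. AT1G33840 had 22.8, 13.7 and 18.7 RPKM in nrpd1 and 0.721, 0.379 and 0.0743 RPKM in WT (47.0-fold, adjusted p = 0.00017). AT1G33850 had 7.85, 7.33 and 5.19 RPKM in nrpd1 and 0 in WT (at least 8.38-fold, adjusted p = 1.18e-05). Its near-identical copy leaves its own level uncertain.

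AT1G36675, a glycine-rich protein gene, and the pseudogene AT1G36680 are 1589 bp apart on the plus strand. The first had 6.95, 5.98 and 5.42 RPKM in nrpd1 and 0.138, 0.0813 and 0.0638 RPKM in WT (64.9-fold, adjusted p = 9.67e-05). The pseudogene had 113, 59 and 68 reads in nrpd1 and 1, 0 and 2 in WT (a ratio of 69.7, 95% counting interval 23.6 to 340.2). Unlike the first pair, this pair was also higher than in nrpe1, where AT1G36675 had 0.822, 0.172 and 0.271 RPKM (log2 difference, nrpd1 minus nrpe1, 3.77, adjusted p = 0.00125).

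AT2G07760 and AT2G07770 lie 584 bp apart, on opposite strands. AT2G07760, a zinc knuckle family gene, had 46, 52 and 55 reads in nrpd1 and none in nrpe1, pkl or WT (at least 14.6-fold over WT, adjusted p = 1.75e-05). With the nrpd1 and WT libraries alone its adjusted p was 0.0016. The pseudogene AT2G07770 had 11, 22 and 28 reads in nrpd1 and none in WT (at least 5.75-fold). In the last pair, RSU1 (AT3G48130, a transcribed pseudogene) and AT3G48131 overlap by 120 bp on the same strand, so that their reads cannot be told apart there. RSU1 had 11.6, 35.8 and 41.8 RPKM in nrpd1 and 1.25, 1.11 and 1.16 RPKM in WT (25.3-fold, adjusted p = 0.00945), with an adjusted p between 0.0504 and 0.0514 without nrpd1 replicate 3 or WT replicate 2 or 3. AT3G48131 had 4, 24 and 10 reads in nrpd1 and 0, 0 and 1 in WT, a ratio of 33.1 with a 95% counting interval of 5.59 to 1341, and its adjusted p was 0.17 with the nrpd1 and WT libraries alone.

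A few genes that rose were abundant. ESM1, a gene of glucosinolate breakdown, had 773.7, 662.0 and 693.6 RPKM in nrpd1 and 342.7, 371.7 and 259.7 RPKM in WT (2.19-fold, adjusted p = 0.0131). AT5G35480 had 99.1, 107.3 and 52.1 RPKM in nrpd1 and 14.4, 26.4 and 9.87 RPKM in WT (5.10-fold, adjusted p = 0.0109). KELP, a transcriptional coactivator, had 64.5, 89.7 and 74.2 RPKM in nrpd1 and 33.6, 36.6 and 30.9 RPKM in WT (2.26-fold, adjusted p = 0.035). The groups did not overlap, but the calls depended on single libraries. The adjusted p of ESM1 was 0.0521 to 0.0699 without nrpd1 replicate 1 or 3 or WT replicate 3, that of AT5G35480 was 0.0504 to 0.0526 without nrpd1 replicate 2 or WT replicate 1 or 3, and that of KELP was 0.0511 to 0.169 without any 1 nrpd1 or WT library or nrpe1 replicate 2. AT4G16540, of the HSP20 family, had 24.2, 50.2 and 68.8 RPKM in nrpd1 and 3.81, 6.10 and 2.65 RPKM in WT (11.4-fold, adjusted p = 0.00609). The noncoding RNA AT2G01422 had 12.9, 17.4 and 21.2 RPKM in nrpd1 and 1.05, 4.13 and 2.33 RPKM in WT (6.87-fold, adjusted p = 0.00567). In the fit of the nrpd1 and WT libraries alone, the adjusted p of ESM1, AT5G35480, AT4G16540 and AT2G01422 was 0.0811, 0.153, 0.0548 and 0.125.

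**Figure D2:**
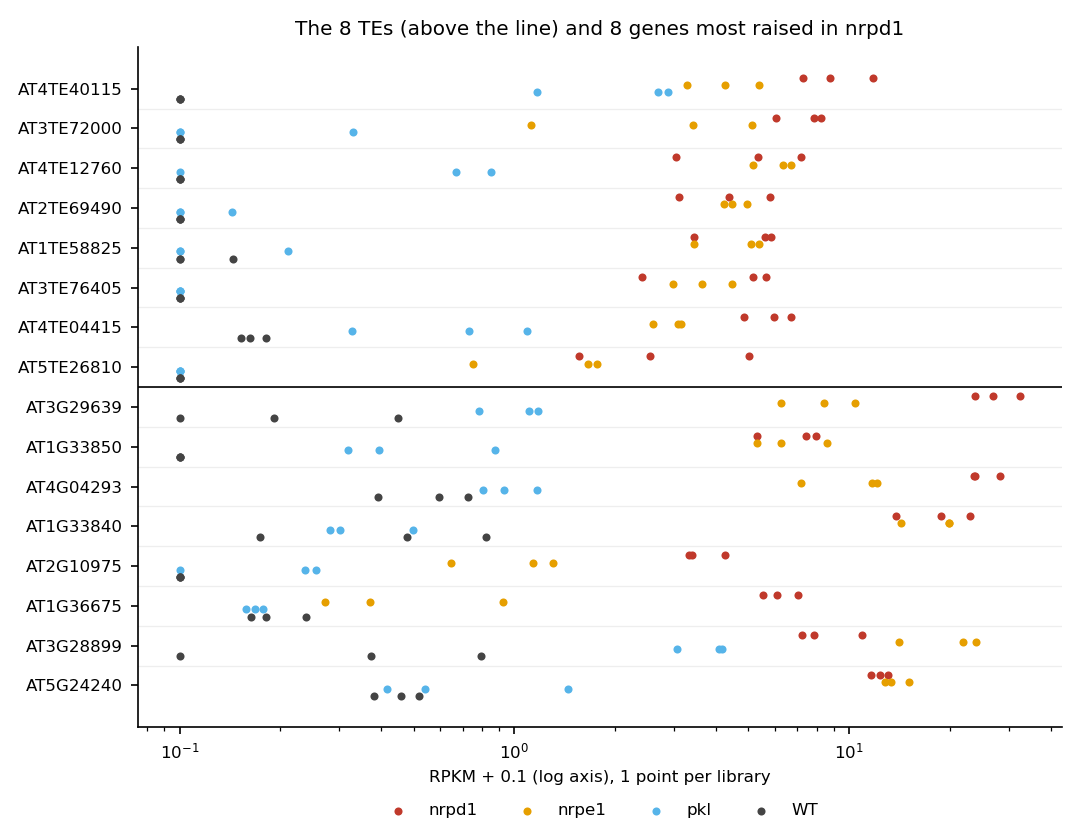
RPKM + 0.1 (log x axis) in each of the 12 libraries for the 8 TEs and the 8 genes with the largest rise in nrpd1, coloured by genotype. In all 16 rows every nrpd1 point lies to the right of every WT point.

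The difference between nrpe1 and pkl is taken from no nrpd1 and no WT library. The spread in its test was estimated over all 12 libraries, including those that chose the features. Its calls are thus not fully independent of that choice. Of the 48 TEs that rose in nrpd1, 32 were higher in nrpe1 than in pkl, against 5.6% of all TEs tested, and 1 (AT2TE78320) was lower, against 2.07%. Of the 42 genes that rose, 25 were higher in nrpe1 than in pkl, against 0.965% of all genes tested, and none was lower (limma, adjusted p). The median log2 difference, nrpe1 minus pkl, was 2.85 for these TEs and 2.27 for these genes, against 0.22 for all TEs and -0.06 for all genes. AT1G33840, for example, had 19.8, 14.2 and 19.8 RPKM in nrpe1 and 0.398, 0.202 and 0.181 RPKM in pkl.

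Against WT, 33 of the 48 TEs and 32 of the 42 genes were also called higher in nrpe1 (background 4.35% and 0.181%), and 5 and 11 of them in pkl (1.76% and 0.951%). These comparisons share the WT libraries. The direct test of nrpd1 against nrpe1 shares the nrpd1 libraries with the contrast that chose the features. By it, 6 of the 48 TEs were higher in nrpd1 (0.622% of all TEs tested) and 1, AT4TE44410, was lower (0.518%), and 7 of the 42 genes were higher (0.0573% of all genes tested) and 3, AT5G41830, AT3G33528 and AT5G52070, were lower (0.533%). Named after their values were seen, the other genes higher in nrpd1 were AT3G56350, which encodes a superoxide dismutase of the iron/manganese family, AT3G43340 and bZIP42. The call of bZIP42 against WT was lost with the replicate block (adjusted p = 0.0586) and when any 1 nrpd1 or WT library was left out, with an adjusted p of up to 0.23. AT3G56350 had 29, 33 and 23 reads in nrpd1 and none in WT. The 6 TEs were AT2TE78320, AT4TE03140, AT4TE32185, AT4TE09085, AT1TE55920 and AT3TE65015. AT3TE65015 had 1.56, 1.22 and 0.817 RPKM in nrpd1, 0.0820, 0.142 and 0.167 RPKM in nrpe1, and 0 in pkl and WT.

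**Figure D3:**
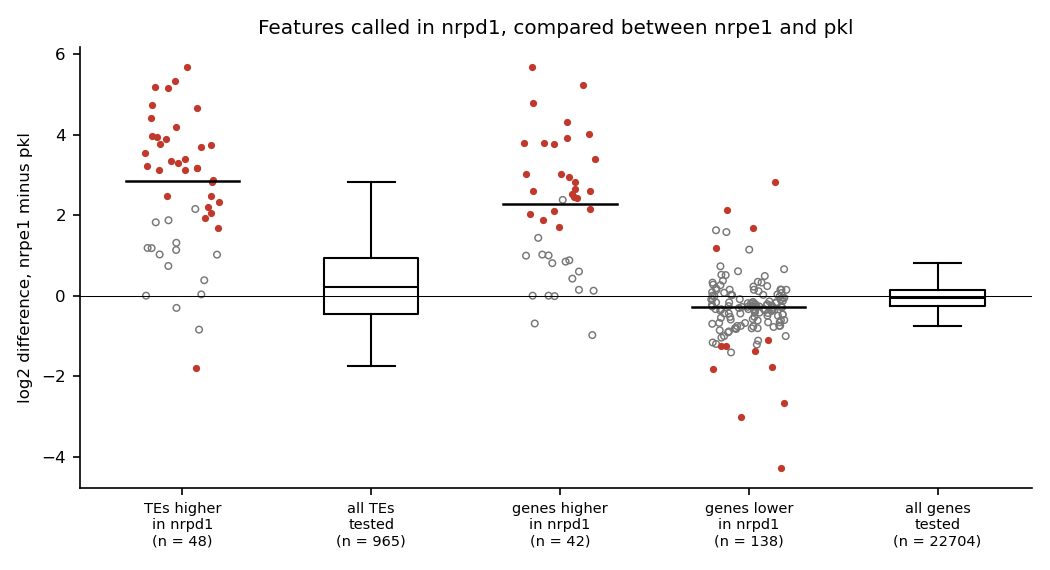
Log2 difference of nrpe1 minus pkl for the TEs and genes called in nrpd1 against WT (points, red where called in this comparison, line at the median) and for all TEs and genes tested (box: quartiles and median, whiskers: 5th and 95th percentiles). TEs and genes that rose in nrpd1 lie mostly above 0, with medians of 2.85 and 2.27, whereas the median of the 138 genes lower in nrpd1 is -0.28.

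The genes that fell outnumbered those that rose. The 138 genes had a median of the mean levels of 0.276 RPKM in nrpd1 and 1.95 RPKM in WT, and a median log2 fold change of -2.39 (-2.31 with the 9 genes at 0 in nrpd1 set to their bound). Protein-coding genes made up 134 of them. By the direct test, which shares the nrpd1 libraries with the contrast that chose them, 99 of the 138 were lower in nrpd1 than in nrpe1, against 0.533% of all genes tested, 9 were called lower in nrpe1 against WT (0.0793% of genes), 1 of which is among the 99, and 31 were neither. The count of 99 became 48 without nrpe1 replicate 2, the shallow library. The count of 138 itself became 75 without WT replicate 2 and 71 without WT replicate 3, and 39 when only the nrpd1 and WT libraries were fitted.

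On the log2 scale ROS1 fell most, and it was the gene shared by the 99 and the 9. It encodes a DNA glycosylase that removes methylated cytosines, and its transcription is known to depend on methylation of its own promoter. ROS1 (chr2:15307907-15314807, minus strand) had a mean of 0.0258 RPKM in nrpd1, and it had 1.05, 1.18 and 0.976 RPKM in nrpe1, 1.73, 2.00 and 2.11 RPKM in pkl, and 11.2, 11.1 and 15.6 RPKM in WT. These are 5, 1 and 1 reads in nrpd1, against 954, 798 and 1423 reads in WT. The gene was thus almost off in nrpd1, 489-fold below WT (log2 fold change -6.66, SE 0.21, adjusted p = 1.7e-07), and it was also lower than in nrpe1 (log2 difference -3.23, adjusted p = 4.91e-05). None of the other 9 genes in a list of 10 active in demethylation was called.

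None of the other 8 genes called lower in both mutants differed between nrpd1 and nrpe1 in the direct test, with log2 differences of nrpd1 minus nrpe1 from -0.32 to 0.92. The transcribed pseudogene AT4G08093 had no read in nrpd1, 0, 0 and 0.0375 RPKM in nrpe1, 1.89, 1.72 and 2.62 RPKM in pkl, and 1.83, 2.29 and 4.24 RPKM in WT, at least 27.2-fold lower in nrpd1 than in WT (adjusted p = 3.09e-05). AT5G11330, an oxidoreductase of the FAD/NAD(P)-binding family, had 13.2, 12.7 and 12.2 RPKM in nrpd1, 10.7, 11.9 and 12.1 RPKM in nrpe1, 33.1, 43.8 and 42.4 RPKM in pkl, and 33.5, 39.6 and 39.6 RPKM in WT (2.96-fold lower, adjusted p = 0.000121). AT1G57620, which encodes a protein of the p24 family, had 6.55, 7.54 and 5.84 RPKM in nrpd1 and 20.5, 21.0 and 21.9 RPKM in WT (3.18-fold lower, adjusted p = 6.92e-05). In all 3 every nrpd1 library lay below every WT library, although the WT libraries of AT4G08093 were spread widely. CYP702A5, a cytochrome P450 gene, AT1G05030, a transporter gene of the major facilitator superfamily, AT1G52000, a lectin gene, and AT4G00130 had log2 fold changes of -2.33, -1.55, -2.26 and -2.11. AT4G00130 had no read in nrpd1 and only 6, 2 and 6 in WT, and its adjusted p was 0.104 with the nrpd1 and WT libraries alone.

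The ninth gene is CYP708A2, a cytochrome P450 gene of the thalianol cluster, a group of neighbouring genes on chromosome 5 that make a root triterpene. It had 2.61, 3.20 and 3.51 RPKM in nrpd1, 4.77, 3.02 and 3.84 RPKM in nrpe1, 12.8, 8.67 and 7.12 RPKM in pkl, and 10.3, 9.69 and 11.7 RPKM in WT (log2 fold change -1.74, SE 0.23, adjusted p = 0.00341). Its neighbour THAS1, the thalianol synthase gene 8970 bp away, had 2.27, 3.27 and 2.67 RPKM in nrpd1 and 10.4, 7.93 and 11.4 RPKM in WT (log2 fold change -1.82, SE 0.24, adjusted p = 0.00321). CYP705A5 of the same cluster had 2.60, 7.12 and 6.45 RPKM in nrpd1 and 15.6, 14.0 and 17.9 RPKM in WT, and did not pass the test (log2 fold change -1.65, adjusted p = 0.0637). AT5G47980, the acyltransferase gene, had a log2 fold change of -0.39 (adjusted p = 1).

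GSTU14 was nearly off in nrpd1 and read in the other genotypes. It encodes a tau-class glutathione S-transferase, an enzyme that joins glutathione to small molecules. GSTU14 had 0, 1 and 0 reads in nrpd1 and 51, 40 and 52 reads in WT, which makes it 164-fold lower with a 95% counting interval of 29.0 to 6531 (adjusted p = 1.18e-05). In nrpe1 it had 4.28, 3.41 and 2.69 RPKM, close to the 3.87, 3.58 and 3.66 RPKM of WT, and the direct test gave a log2 difference of -4.89 for nrpd1 minus nrpe1 (adjusted p = 1.99e-05). GSTU28 had 5 reads in each nrpd1 library, 32, 23 and 24 reads in nrpe1, and 37, 23 and 34 reads in WT (7.12-fold lower than WT by RPKM, adjusted p = 0.000908). These were 2 of 28 tau-class genes tested, against 0.608% of all genes lower. The list was chosen with earlier results of these data known. The median log2 fold change of the list was -0.15, and no member rose.

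**Figure D4:**
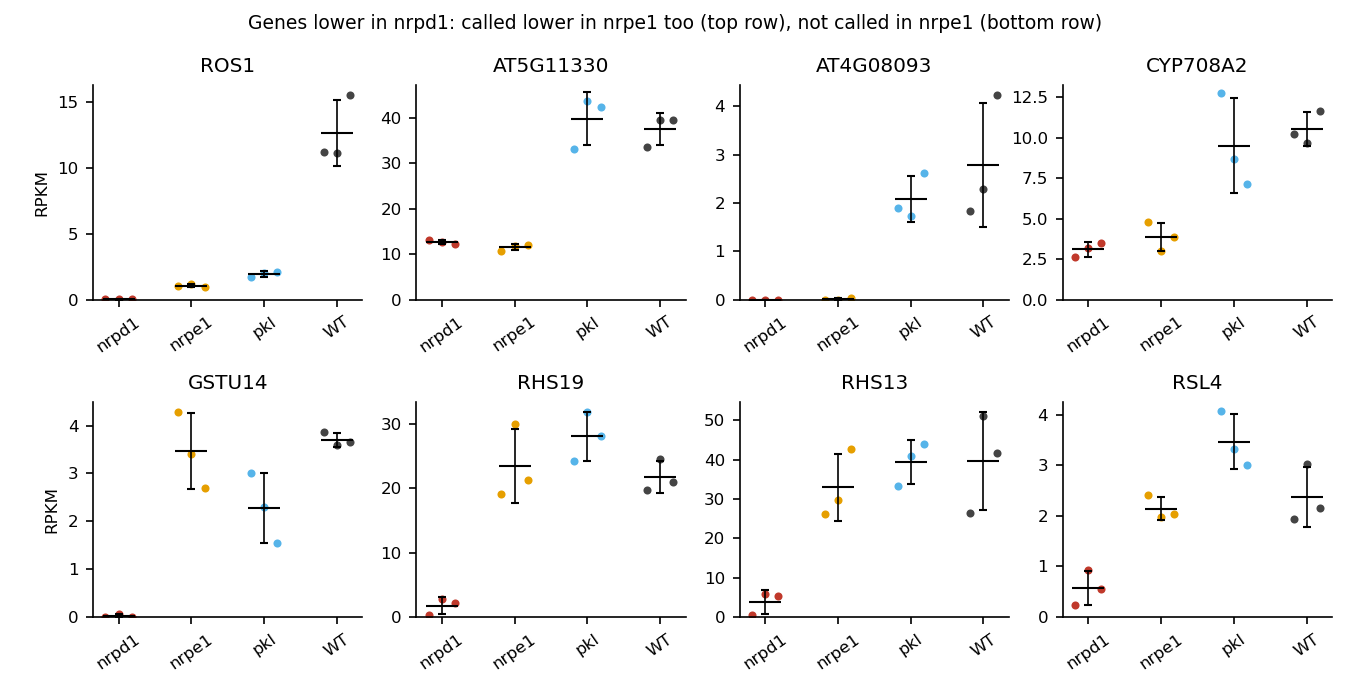
RPKM of 8 genes lower in nrpd1 in each of the 12 libraries (points), with the mean and SD of each genotype (n = 3). ROS1, AT5G11330, AT4G08093 and CYP708A2 were low in nrpe1 as well, whereas GSTU14, RHS19, RHS13 and RSL4 were not called lower in nrpe1.

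Of the 99 genes lower in nrpd1 than in both WT and nrpe1, 10 carry in RefSeq a name as root hair specific. Root hairs are the tubular outgrowths of single cells of the root epidermis. Hair cells are set apart from their neighbours by the patterning factors WER, GL3, EGL3, TTG1, CPC and GL2. The basic helix-loop-helix (bHLH) factors RHD6 and RSL1 then start the hair, and RSL4, RSL2 and factors of the LRL family drive its growth. Wall proteins such as expansins, extensins and proline-rich proteins follow, together with peroxidases.

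Many hair genes carry the root hair element (RHE), a promoter motif. Within the 250 bases before the annotated start, RSL4, RHS19, XTH14, RHS14, RHS16, RHS12 and AGP3, which also fell, held no RHE. To show the motif, those bases are given for 4 genes that fell and were chosen for holding it. They are written on the strand of the gene, with the RHE in capitals (RefSeq, TAIR10.1).
EXPA7, chr1:4276255-4276504, plus strand: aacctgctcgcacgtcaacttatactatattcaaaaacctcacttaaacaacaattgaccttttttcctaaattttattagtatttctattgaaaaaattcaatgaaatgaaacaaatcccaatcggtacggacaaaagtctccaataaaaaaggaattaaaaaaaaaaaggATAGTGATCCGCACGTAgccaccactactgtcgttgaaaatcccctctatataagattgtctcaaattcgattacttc
EXPA18, chr1:23331313-23331562, plus strand: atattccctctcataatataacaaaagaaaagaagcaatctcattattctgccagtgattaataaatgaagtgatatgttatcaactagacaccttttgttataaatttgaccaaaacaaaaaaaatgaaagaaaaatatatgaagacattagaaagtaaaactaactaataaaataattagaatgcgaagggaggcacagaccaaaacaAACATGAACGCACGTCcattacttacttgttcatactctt
RHS18, chr5:7426060-7426309, plus strand: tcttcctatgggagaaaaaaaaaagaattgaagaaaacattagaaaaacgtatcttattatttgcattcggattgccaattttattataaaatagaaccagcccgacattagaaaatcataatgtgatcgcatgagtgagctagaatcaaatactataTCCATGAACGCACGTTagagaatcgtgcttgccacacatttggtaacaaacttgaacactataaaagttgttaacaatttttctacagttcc
RHS13, chr4:993040-993289, minus strand: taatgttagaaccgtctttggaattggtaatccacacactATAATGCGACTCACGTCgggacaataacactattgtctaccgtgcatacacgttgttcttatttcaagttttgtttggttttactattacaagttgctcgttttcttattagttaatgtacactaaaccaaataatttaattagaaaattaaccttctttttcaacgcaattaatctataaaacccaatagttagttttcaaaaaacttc
A search of both strands found an RHE in this window in 14 of the 138 genes that fell (10.1%) and in 13 of the 99 that were also lower than in nrpe1 (13.1%), against 170 of 22514 genes tested that have a sequence (0.755%). None of the 42 genes that rose and none of the 9 lower in both mutants held one. The shorter motif GCACGT, which occurs within some RHEs, was found before 28 of the 138 genes (20.3%) and before 3.75% of all genes tested. A match is a description of the letters and says nothing about binding.

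RefSeq names 19 genes as root hair specific (RHS), by symbol or synonym, a list made after the results were seen. All 19 were tested. Of these, 11 fell in nrpd1, against 0.608% of all genes tested (RHS1, RSH2, RSH4, RHS12, RHS13, RHS14, G3Pp2, RHS16, MES15, RHS18 and RHS19, in the spelling of RefSeq), none rose, and the median log2 fold change was -2.41, against 0.04 for all genes. Summed over the list, the level was 10.3, 27.4 and 24.2 RPKM in nrpd1, 88.7, 125.7 and 121.3 RPKM in nrpe1, 120.0, 138.7 and 138.0 RPKM in pkl, and 92.1, 129.4 and 119.2 RPKM in WT. Replicate 1 was the lowest of its genotype in every case, and within each replicate number nrpd1 was the lowest. By the direct test 11 of the 19 were lower in nrpd1 than in nrpe1, against 0.533% of all genes, 10 of which are among the 11 that fell against WT, with RHS17 in the place of RHS13. Fewer root hair cells and less RNA per hair cell cannot be told apart in whole seedlings. The 11 genes became 7 without WT replicate 2, 7 without WT replicate 3, 0 when only the nrpd1 and WT libraries were fitted, and the 11 lower than in nrpe1 became 4 without nrpe1 replicate 2.

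RHS19, a peroxidase gene, had 0.310, 2.76 and 2.21 RPKM in nrpd1, 19.2, 30.0 and 21.3 RPKM in nrpe1, 24.2, 31.9 and 28.2 RPKM in pkl, and 19.8, 24.6 and 21.1 RPKM in WT. Its highest nrpd1 library was well below all others (12.4-fold lower than WT, log2 fold change -3.97, SE 0.57, adjusted p = 0.00556). RHS13, a gene of the extensin kind, had 0.361, 5.88 and 5.21 RPKM in nrpd1 and 26.4, 51.0 and 41.7 RPKM in WT (log2 fold change -3.97, SE 0.77, adjusted p = 0.0375). Its call was lost without WT replicate 1, 2 or 3 or nrpe1 replicate 2, with adjusted p from 0.0712 to 0.181, and its difference from nrpe1 did not pass the test (log2 difference -3.73, adjusted p = 0.0726). RHS18 had 0.297, 1.90 and 1.17 RPKM in nrpd1 and 7.21, 9.45 and 7.05 RPKM in WT (log2 fold change -2.98, adjusted p = 0.0093, and 0.0564 without WT replicate 2). With the nrpd1 and WT libraries alone, the adjusted p of RHS19, RHS13 and RHS18 was 0.159, 0.42 and 0.2. PRP1 and PERK13, not called at adjusted p of 0.0817 and 0.112, were called with the replicate block, at 0.0136 and 0.00868.

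Among the 9 bHLH factors, RSL4 and LRL3 fell, against 0.608% of all genes. RSL4 had 0.240, 0.925 and 0.555 RPKM in nrpd1, 2.41, 1.97 and 2.04 RPKM in nrpe1, and 1.93, 3.03 and 2.15 RPKM in WT (log2 fold change -1.99, SE 0.35, adjusted p = 0.0182, and 0.0648 to 0.104 without nrpd1 replicate 3 or WT replicate 2 or 3). LRL3 had 0.371, 1.44 and 0.708 RPKM in nrpd1, 4.03, 5.99 and 5.37 RPKM in nrpe1, and 4.85, 3.99 and 4.45 RPKM in WT (log2 fold change -2.43, SE 0.35, adjusted p = 0.00586). Both were lower than in nrpe1 too, with adjusted p of 0.0392 and 0.00574. Against WT, with the nrpd1 and WT libraries alone, they had adjusted p of 0.281 and 0.148. RHD6, which acts first, had 31, 51 and 65 reads in nrpd1 and 52, 48 and 46 reads in WT, and the groups overlapped (log2 fold change -0.24, adjusted p = 1). RSL1, LRL1, LRL2, RSL3 and RSL5 were not called either. RSL2 had a log2 fold change of -2.09 with an adjusted p of 0.174, and 0.0197 with the replicate block.

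None of the 6 patterning genes was called. GL2 had 3.33, 2.29 and 3.55 RPKM in nrpd1 and 2.59, 2.47 and 4.12 RPKM in WT, and WER had 4.50, 5.45 and 4.65 RPKM in nrpd1 and 2.79, 3.94 and 3.09 RPKM in WT (log2 fold change 0.57, adjusted p = 0.385). Nor was any of 8 genes of the root endodermis, which include the regulators SHR, SCR and MYB36 and the Casparian strip genes CASP1 to CASP5. Summed over these 8, the level was 56.1 to 79.9 RPKM in nrpd1 and 58.5 to 63.6 RPKM in WT, with a median log2 fold change of 0.20. The summed levels of these genes of another root cell type thus overlapped between nrpd1 and WT. At a background of 0.608%, lists this short would hold no called gene as a rule.

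**Figure D5:**
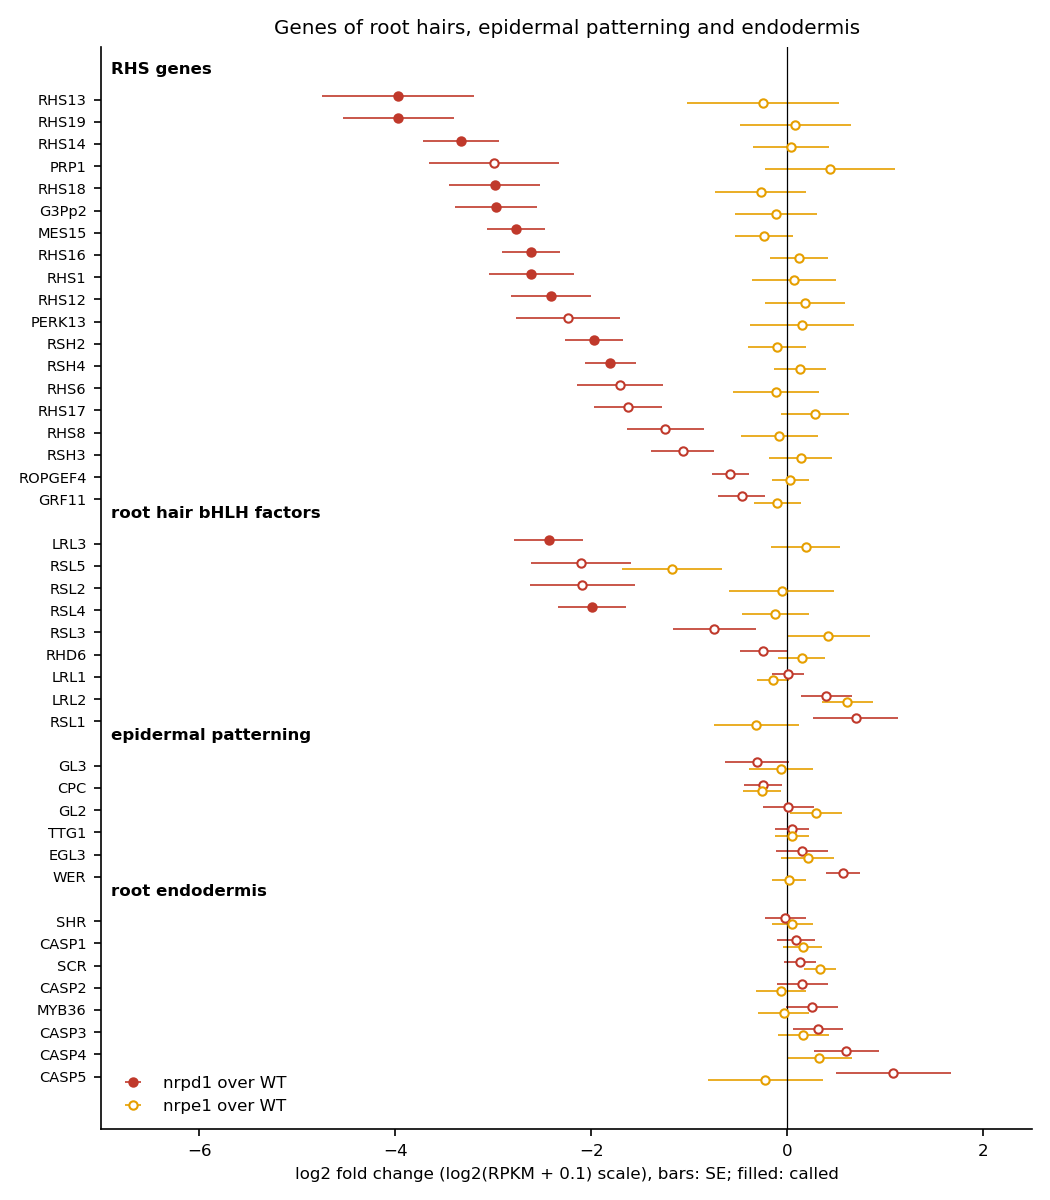
Log2 fold change against WT with its SE for nrpd1 (red) and nrpe1 (orange), for the RHS genes, the root hair bHLH factors, the epidermal patterning genes and the root endodermis genes, filled where called. The RHS genes lie to the left of 0 in nrpd1, from -3.97 to -0.46, and around 0 in nrpe1. In nrpd1 the patterning genes lie from -0.31 to 0.57 and the endodermis genes from -0.02 to 1.09, none of them called.

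Genes of the cell wall were also among those that fell. EXPA7 and EXPA18 encode expansins, which loosen the cell wall. EXPA7 had 0.470, 1.70 and 1.12 RPKM in nrpd1, 6.13, 5.91 and 5.09 RPKM in nrpe1, and 5.70, 6.22 and 5.73 RPKM in WT (5.38-fold lower than WT, adjusted p = 0.0033). EXPA18 had 0.162, 1.32 and 1.34 RPKM in nrpd1, 8.55, 10.1 and 10.7 RPKM in nrpe1, and 9.09, 9.43 and 9.41 RPKM in WT (9.88-fold lower, adjusted p = 0.00626). Both calls were lost, at adjusted p of 0.126 and 0.182, with the nrpd1 and WT libraries alone. With RSL4 these were the 3 called of 10 genes in a list of root markers (background 0.608%), whose median log2 fold change was -2.23. This list was chosen with earlier results of these data known, and its members ranged from -3.53 to 0.13. PRP3 and LRX1 of that list had log2 fold changes of -3.29 and -2.92 with adjusted p of 0.101 and 0.0614, and with the replicate block 0.01 and 0.00172.

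XTH14, which encodes an enzyme that cuts and rejoins wall xyloglucan, had 0.396, 5.82 and 4.72 RPKM in nrpd1, 27.9, 39.1 and 37.2 RPKM in nrpe1, and 28.5, 36.8 and 33.5 RPKM in WT (9.03-fold lower than WT, adjusted p = 0.032). AGP3, an arabinogalactan protein gene, had 0.649, 4.68 and 2.83 RPKM in nrpd1 and 18.9, 28.5 and 24.9 RPKM in WT (8.86-fold lower, adjusted p = 0.00945). The extensin gene EXT6 had 1, 27 and 28 reads in nrpd1 and 142, 263 and 288 reads in WT (14.9-fold lower by RPKM, adjusted p = 0.0326). EXT6 has 17 near-identical copies, so its own level is uncertain. In these genes nrpd1 replicate 1 was far below replicates 2 and 3, and the calls depended on single libraries. The adjusted p of XTH14 was 0.0608 to 0.145 without any 1 WT replicate or nrpe1 replicate 2, that of AGP3 was 0.0529 to 0.0564 without WT replicate 2 or 3, and that of EXT6 was 0.0548 to 0.162 without nrpd1 replicate 1 or any 1 WT replicate. They were 0.406, 0.193 and 0.204 with the nrpd1 and WT libraries alone.

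Peroxidases of the secreted class use hydrogen peroxide to cross-link wall proteins. Of 58 tested genes annotated as peroxidase superfamily, 7 fell (12.1%, against 0.608% of all genes) and none rose. AT5G17820, the most abundant gene that fell, had 18.4, 20.1 and 15.6 RPKM in nrpd1, 47.3, 36.0 and 39.1 RPKM in nrpe1, and 43.5, 40.5 and 40.1 RPKM in WT (2.30-fold lower, adjusted p = 0.00127). AT4G26010 had 1.86, 6.91 and 5.59 RPKM in nrpd1 and 25.7, 33.0 and 28.4 RPKM in WT (6.06-fold lower, adjusted p = 0.00408). AT3G49960 had 0.250, 3.72 and 3.71 RPKM in nrpd1 and 18.4, 22.8 and 22.9 RPKM in WT (8.33-fold lower, adjusted p = 0.0432, and 0.0772 to 0.178 without any 1 WT replicate or nrpe1 replicate 2). Of 13 genes of the CAP superfamily of secreted cysteine-rich proteins 5 fell (38.5%), as did 8 of 181 extensin or proline-rich genes (4.42%) and 4 of 269 protein kinase superfamily genes (1.49%), where the same 0.608% is the background. AT3G09925, of the Pollen Ole e 1 and extensin family, had 1.36, 6.33 and 4.94 RPKM in nrpd1 and 20.8, 31.8 and 31.6 RPKM in WT (6.67-fold lower, adjusted p = 0.00719). With the nrpd1 and WT libraries alone, the adjusted p of AT4G26010, AT3G49960 and AT3G09925 was 0.134, 0.444 and 0.19, and AT5G17820 was still called (0.0226). These classes were formed after the called genes had been seen. The median log2 fold change was 0.07 for the peroxidases, -0.46 for the CAP genes, -0.02 for the extensin or proline-rich genes and 0.03 for the kinases.

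Chosen in the same way, 3 further genes of known roles in root hair growth fell. SHV2, a COBRA-like protein gene, had 0.176, 0.396 and 0.335 RPKM in nrpd1 and 2.30, 2.01 and 2.40 RPKM in WT (log2 fold change -2.58, adjusted p = 0.000264). COW1, which encodes a phosphatidylinositol transfer protein, had 0.448, 0.889 and 0.973 RPKM in nrpd1 and 2.91, 3.72 and 4.28 RPKM in WT (log2 fold change -2.15, adjusted p = 0.00579). IRE, a protein kinase gene, had a log2 fold change of -1.89 (adjusted p = 0.00402). RAP2.11, an ERF-type transcription factor gene, and its neighbour AT5G19800, a hydroxyproline-rich glycoprotein gene 479 bp away, fell together. RAP2.11 had 0, 0.862 and 0.515 RPKM in nrpd1 and 3.27, 3.66 and 3.64 RPKM in WT (adjusted p = 0.0473, and 0.075 to 0.185 without nrpd1 replicate 3, any 1 WT replicate or nrpe1 replicate 2). AT5G19800 had 0.185, 1.46 and 0.661 RPKM in nrpd1 and 5.53, 7.44 and 6.37 RPKM in WT (adjusted p = 0.0117, and 0.0596 to 0.0691 without WT replicate 2 or 3). With the nrpd1 and WT libraries alone, SHV2 was still called (0.0232), and the adjusted p of COW1, IRE, RAP2.11 and AT5G19800 was 0.0766, 0.0768, 0.434 and 0.17.

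The remaining genes with a large fall included AT5G42510, a dirigent-like gene, with 0.0983, 0.259 and 0.438 RPKM in nrpd1 and 6.58, 6.21 and 4.88 RPKM in WT (22.2-fold lower, adjusted p = 0.000194). This gene has 1 near-identical copy. The defensin-like gene AT4G22217 had no read in nrpd1 and 13, 7 and 16 reads in WT (at least 4.48-fold lower, adjusted p = 0.00742). AT1G30990, of the polyketide cyclase family, had 0, 0 and 1 reads in nrpd1 and 17, 13 and 13 reads in WT. PPa3, an inorganic pyrophosphatase gene, had 0.0594, 0.208 and 0.212 RPKM in nrpd1 and 2.08, 4.05 and 2.95 RPKM in WT (18.9-fold lower, adjusted p = 0.000173). AT5G14330 had 7.43, 9.69 and 11.6 RPKM in nrpd1 and 21.3, 46.4 and 33.4 RPKM in WT (3.52-fold lower, adjusted p = 0.0134, and 0.058 to 0.072 without nrpd1 replicate 1 or WT replicate 2 or 3). The only long noncoding RNA called, AT1G49938, had no read in nrpd1 and 1, 3 and 2 reads in WT, too few for a fold. Its adjusted p was 0.0345, and 0.0608 to 0.174 without any 1 nrpd1 replicate, WT replicate 2 or 3, or nrpe1 replicate 2. With the nrpd1 and WT libraries alone, AT5G14330 and AT1G49938 had adjusted p of 0.151 and 0.0923.

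As a set, the 99 genes lower in nrpd1 than in both WT and nrpe1 summed to 57.0, 122.9 and 106.6 RPKM in nrpd1, 439.1, 549.5 and 507.8 RPKM in nrpe1, 579.8, 630.0 and 597.7 RPKM in pkl, and 450.3, 537.1 and 510.9 RPKM in WT. These sums describe the genes, which were chosen for being low in nrpd1 and higher in nrpe1 and WT. In nrpe1 against pkl, whose difference uses no nrpd1 or WT library, 9 of all 138 genes were lower and 4 were higher in nrpe1. The background was 1.03% and 0.965% of all genes tested, and the median log2 difference of the 138 genes was -0.28. Of the 99 genes, 0 were lower and 2 were higher in nrpe1 than in pkl. The nrpe1 libraries had a part in choosing the 99, so this is no separate support. In 67 of the 99 genes nrpd1 replicate 1 was the lowest of the nrpd1 libraries. Without nrpd1 replicate 1, 107 of the 138 genes were still called, and all 138 were called with the replicate block.

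Other pathways were examined through 25 lists with 365 genes, of which 350 were tested. The lists were chosen with earlier results of these data known. Among the 350, SDC was higher and ROS1, GSTU14, GSTU28, EXPA7, EXPA18 and RSL4 were lower, against 0.185% and 0.608% of all genes tested. The other 21 lists, with 293 tested members, held no called gene, which is close to what that background gives, and their medians lay between -0.18 and 0.28. They cover the polymerase IV and polymerase V arms of RdDM, maintenance methylation, salicylic acid and jasmonate defence, and heat shock. Also covered are cold, low oxygen, iron, phosphate, sulphur and nitrate responses, wounding and touch, and the circadian clock. Further lists are of photosynthesis, glucosinolates, flavonoids, auxin response, seed storage and floral identity. A list speaks only for its own members. FRO4 and IRT2, which are named for iron but are not in the iron list, fell. Their adjusted p with the nrpd1 and WT libraries alone was 0.017 and 0.117.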

How the data were processed

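RNA was measured by stranded, poly(A)-selected sequencing in 12 libraries, 3 per genotype. The deposited values are RPKM per gene and TE, for which the authors trimmed the reads, aligned them to TAIR10 and counted them with featureCounts (submitters' processing notes: CASAVA 1.8, Trim Galore 0.4.0, Subread 1.5.1 and edgeR). Multiply mapped reads, overlaps and strand in counting are not given in the sources used here. As the RPKM steps show whole reads, read numbers were recovered for at least 99.9998% of each library total. With 3 reads as the limit of detection, fold bounds and exact 95% intervals cover counting error only.

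Features with RPKM of at least 0.1 in 3 of 12 libraries were tested on log2(RPKM + 0.1), a scale that understates changes of low features, with limma 3.58.1 in R 4.3.3 (trend, 1 mean per genotype, 12 libraries, no covariate). P-values were two-sided and Benjamini-Hochberg adjusted over all 23669 features, and SE is that of the log2 fold change. Both the model and the read recovery were tested on simulated data. For the model, changes were simulated only in well-read features and without a shift shared by a replicate number. Calls of features with no read in WT were therefore not covered. Copies were sought with blastn 2.17.0 and tests of single values used scipy 1.17.1 (Python 3.11.15).

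Same-numbered nrpd1 and WT libraries deviated together from their group means (r of 0.559, 0.288 and 0.286). However, r was also 0.21 for nrpd1 replicate 3 with WT replicate 2, and 0.127 for nrpd1 replicate 2 with WT replicate 3. These values set replicate 1 apart and do not show that numbers 2 and 3 are paired. A fit with the replicate number as a block was an alternative. The other alternatives were pseudocounts of 0.01 and 1, no filter, an RPKM minimum of 0.5, median-ratio scaling, the 6 nrpd1 and WT libraries alone, leaving out single libraries and voom on the recovered reads. Leaving out nrpe1 replicate 2, and the RHS, bHLH, patterning, endodermis, thalianol and product lists, were added after seeing the data. P-values measure the spread between the replicates, whose separate growth is not described further.

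Named by rule were NRPD1, NRPE1, ROS1 and 3 loci of the study; of called features with separate groups, the 8 genes higher, 12 genes lower and 8 TEs higher with the largest change and all TEs lower; the 4 higher and 8 lower genes most abundant in nrpd1 and WT; called list members; the largest called gene of each noncoding biotype; and called neighbours. Members and lists were chosen with earlier results of these data known. TE families and coordinates were not used here.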

Additional observations from a re-analysis of the deposited data

How the results depend on the processing

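Of 914 values of the 61 named features under the alternatives, 802 kept direction and side of the threshold, 110 fell below it, 2 passed it and 0 reversed, and 30 of the 58 called features kept their call throughout. A pseudocount of 1 gave 86 genes lower in place of 138, 23 TEs higher in place of 48, 74 features that differed between nrpd1 and nrpe1 in place of 116, 63 genes lower than in nrpe1 in place of 99, 1 TE higher than in nrpe1 in place of 6, and 18 TEs higher in nrpe1 than in pkl in place of 32, and a pseudocount of 0.01 gave 1 TE lower in place of 2 and 3 TEs higher than in nrpe1. The nrpd1 and WT libraries alone, a fit with fewer samples, gave 39 genes lower, 0 TEs lower, 3 list members lower in place of 6, and 0 RHS genes lower in place of 11. Leaving out single libraries gave 71 to 132 genes lower (75 without WT replicate 2, 71 without WT replicate 3), 0 to 2 TEs lower, 7 to 11 RHS genes lower, 62 to 100 features that differed between nrpd1 and nrpe1, 48 to 85 genes lower than in nrpe1, and 4 to 11 RHS genes lower than in nrpe1. The cause was not tested. The replicate block gave 4 TEs lower and made AT2TE82000, PRP1, PERK13, PRP3, LRX1 and RSL2 called, it lost the call of bZIP42 (adjusted p = 0.0586), and it changed no other call of a named feature. Median-ratio scaling called 43 genes higher and 151 lower and shared 229 of the 230 calls, voom shared 217. At 3 reads, depth limits TEs and genes that are silent in WT to lower bounds.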
